A study of Homo sapiens with 8 samples.

Results

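Knockdown of ABL1 was profiled by RNA-seq in LM2 cells, and the comparison is between the sample labelled as ABL1 knockdown (ABL1 shRNA) and the sample labelled as scrambled shRNA (shCtrl), which are 2 of the 8 samples of the series. Each was assigned to its group by its label. LM2 is a subline of the triple negative human breast cancer line MDA-MB-231 that spreads to the lung. Both samples carried a lentiviral short hairpin RNA (shRNA) vector, made in packaging cells, and both were selected with puromycin, so shCtrl differed from the parental cells by the vector and the selection too. Each group was 1 library from 1 transduced population. No difference below therefore has a replicate check, no p-value is given for any gene, and the size of a difference and the number of related genes that share it are what is described. The ABL2 shRNA library and the library with both shRNAs (1 each) served as side-by-side values, and the 2 DMSO samples, which are repeats of vehicle-treated LM2 cells, gave a spread between repeats of another experiment without transduction.

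ABL1 and ABL2 are the members of the ABL family of nonreceptor tyrosine kinases. They pass signals from growth factor receptors and integrins to the actin cytoskeleton, through adaptors such as CRK and NCK, the WAVE complex and cortactin, and ABL1 also acts in the nucleus after DNA damage. In breast cancer cells both kinases have been linked to invasion and to the turnover of the matrix. An shRNA lowers the mRNA of its target, and because 1 hairpin can also act on other mRNAs, a single hairpin cannot separate target from off-target effects.

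The files hold raw HTSeq counts per gene. Counts on genes summed to 11610339 in shCtrl and 13010896 with ABL1 shRNA, and levels are given as CPM, counts scaled to a common total, which take no account of gene length and are compared only within a gene. A log2 ratio is the log2 of the CPM with ABL1 shRNA over that in shCtrl, and its range in brackets is the exact 95% interval, which covers counting error only. A gene was measured when it had at least 50 counts in 1 of the 2 samples, which held for 12242 genes, and it is called higher or lower when its ratio passed 2-fold. The header cells inside the 2 files name each other's condition, so the files were checked against the labels through ABL1 itself. All 12 of 12 genes on a list of LM2 and MDA-MB-231 markers (among them VIM, CD44 and AXL) were measured and none passed 2-fold, and the luminal markers ESR1, PGR and FOXA1 had at most 11 counts in either library. LIN28B, PAX2, HOXA9, CRABP1 and DCX, which mark the packaging cells, were at 0 in both, while on the same list CKB had 590 and 1039 counts, ZIC2 495 and 669 and POU3F2 33 and 55, all within 2-fold.

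ABL1 (ENSG00000097007.14, chromosome 9, GRCh38 130713043 to 130887675) had 2159 counts in shCtrl and 944 with ABL1 shRNA. Its level was 186.0 CPM (178.2 to 194.0) in shCtrl, 72.6 CPM (68.0 to 77.3) with ABL1 shRNA, 204.7 CPM for ABL2 shRNA and 111 CPM for both. The level with ABL1 shRNA was thus 39.0% of that in shCtrl, a log2 ratio of -1.36 (-1.47 to -1.25), and it was the lowest of the 4 shRNA libraries. The low ABL1 level lay in the library whose label names ABL1, and the samples were used as labelled. Of the 12242 measured genes, 90 had a lower ratio than the targeted gene. ABL2 (ENSG00000143322.16, chromosome 1, 179099330 to 179229684) was at 231.3 CPM in shCtrl, 212 with ABL1 shRNA, 94.5 for ABL2 shRNA and 149 for both. Its log2 ratio was -0.13 (-0.20 to -0.05), within 2-fold, so ABL2 mRNA did not stand above its control level when ABL1 mRNA was low.

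**Figure D1:**
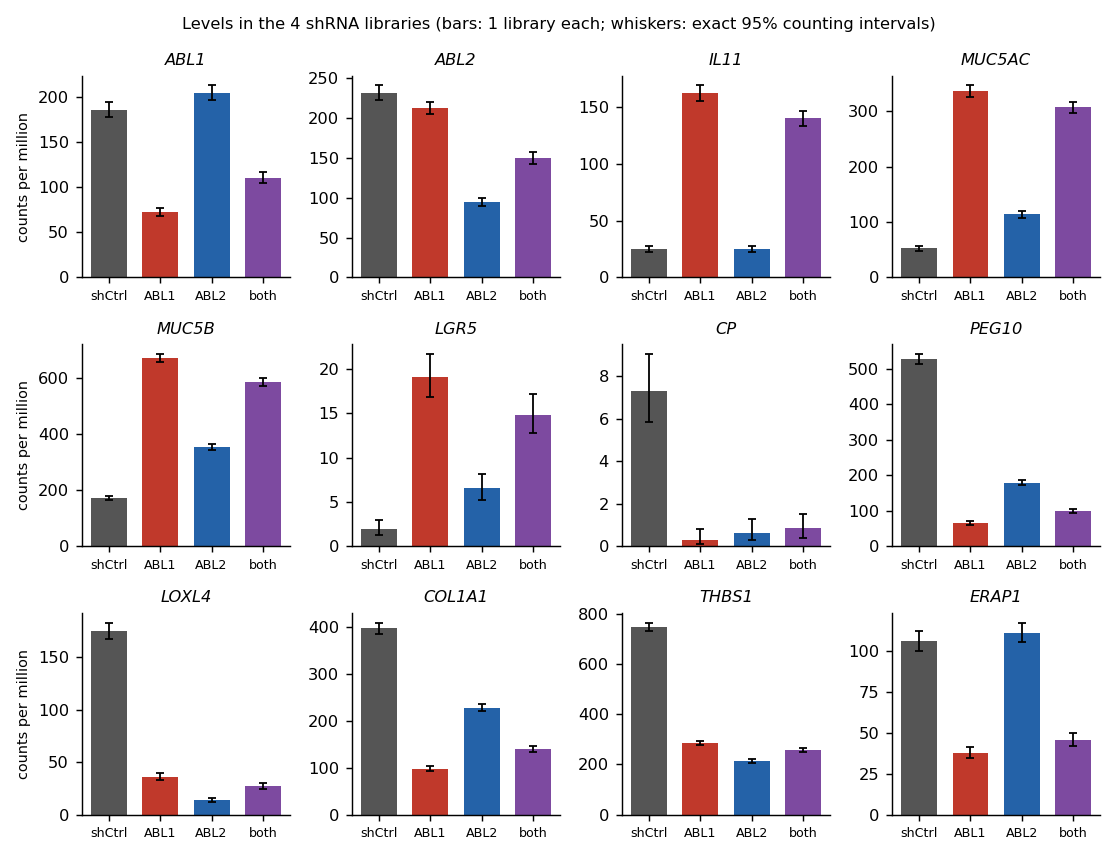
Level of 12 genes in CPM (vertical axis, from 0) in the 4 shRNA libraries (shCtrl, ABL1 shRNA, ABL2 shRNA and both), with 1 library per bar and exact 95% counting intervals as whiskers. ABL1 is lowest in the ABL1 shRNA library (72.6 CPM), where IL11, MUC5AC, MUC5B and LGR5 are highest and PEG10, COL1A1 and ERAP1 lowest of the 4.

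Past 2-fold were 546 of the 12242 measured genes (4.46%), with 286 higher (2.34%) and 260 lower (2.12%). The median log2 ratio of all measured genes was 0.02 and the SD across genes 0.48. Between the 2 DMSO repeats, by the same rule, 4 of 12311 genes (0.0325%) passed 2-fold, 1 higher (0.00812%) and 3 lower (0.0244%), and the SD was 0.17. The labels do not say whether those repeats were separate cultures, and neither was transduced, so they do not give the spread between shRNA lines. Over the same shCtrl library, 479 of 12263 genes (3.91%) passed 2-fold in the ABL2 shRNA library, 324 higher (2.64%) and 155 lower (1.26%). In the library with both shRNAs they were 434 of 12206 (3.56%), 257 higher (2.11%) and 177 lower (1.45%). Compared directly with the ABL2 shRNA library, without shCtrl, 454 of 12363 genes (3.67%) passed 2-fold, 179 of them higher (1.45%) and 275 lower (2.22%) with ABL1 shRNA. Calls were unevenly spread over levels. A gene can be called through 1 library alone. Of the 286 higher genes 124 had under 50 counts in shCtrl, and of the 260 lower genes 77 had under 50 counts with ABL1 shRNA, so such genes were measured only because they differed. With genes in 5 equal bins of mean CPM, of those with the lowest mean CPM, 10.9% were called, against 2.41% to 3.60% in the other bins. Counts of calls in the gene lists below are to be read beside 2.34% higher and 2.12% lower over all measured genes. Some lists lay near these shares, such as DNA replication (1.92% higher), ATF4 stress genes (2.56% higher) and lysosome genes (2.17% lower).

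**Figure D2:**
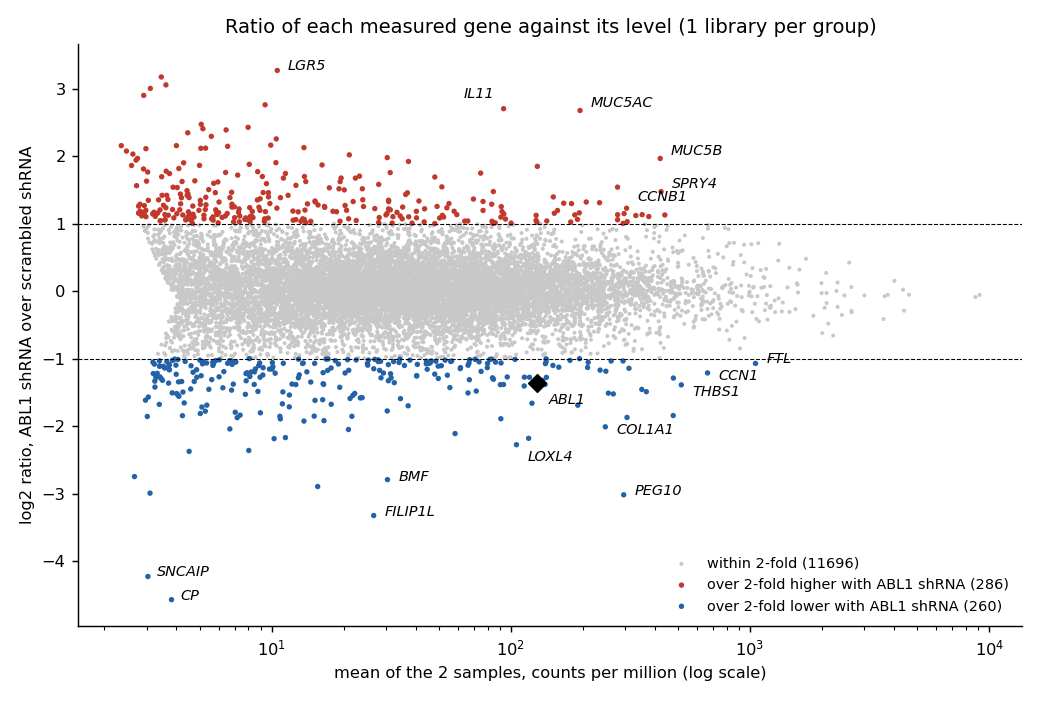
Log2 ratio of ABL1 shRNA over scrambled shRNA (vertical axis) against the mean level of the 2 samples in CPM (horizontal axis, log scale) for each measured gene, with dashed lines at 2-fold. The 286 higher and 260 lower genes are coloured, ABL1 is the black diamond at -1.36, and LGR5 (3.27) and CP (-4.57) lie at the extremes.

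Among the lists with many members, the widest shift was in mitosis and spindle genes. These genes are switched on late in the cell cycle and drive entry into mitosis, chromosome segregation and cell division. All 48 genes of the list were measured, and 47 of them were above shCtrl with ABL1 shRNA, while 6446 of all 12242 measured genes were. The median log2 ratio of the list was 0.75. Of its members, 10 passed 2-fold in the higher direction and 0 in the lower, and the background share of higher calls was 2.34%. Across the list the median level was 94.9 CPM in shCtrl and 172 with ABL1 shRNA, 105 for ABL2 shRNA and 173 for both.

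PTTG1, the securin that guards sister chromatid cohesion, was at 104 CPM in shCtrl and 255.0 with ABL1 shRNA, a log2 ratio of 1.30 (1.20 to 1.39). Cyclin B1 (CCNB1), which activates CDK1 at mitotic entry, was at 182 and 427 CPM, with a ratio of 1.23 (1.16 to 1.30). CDC25C, the phosphatase that removes the inhibitory mark from CDK1, was at 18.9 and 43.7 CPM, with a ratio of 1.21 (0.98 to 1.44). CDK1 itself was among the higher genes, at 116 and 254 CPM, a ratio of 1.13 (1.04 to 1.22). UBE2C, a ubiquitin-conjugating enzyme of the anaphase-promoting complex, had 94.2 and 209.8 CPM (ratio 1.15, 1.05 to 1.26). CDC20, an activator of that complex, had 83.1 and 172 CPM (1.05, 0.94 to 1.16). The other members past 2-fold were NEK2 (1.14), ANLN (1.13), ESPL1 (1.07) and CCNB2 (1.02), which act in centrosome separation, cytokinesis, cohesin cleavage and CDK1 activation. With TMM or DESeq2 factors CCNB2 fell just inside 2-fold, which left 9 members called. Members just under 2-fold were CENPF, at 449.8 and 886 CPM (0.98), ASPM (0.97) and TTK (0.97). The smaller ratios were those of MKI67 (0.34), DLGAP5 (0.34), FOXM1 (0.37) and BUB3 (0.12), and MYBL2 was the 1 member below control (-0.47).

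In the other shRNA libraries the list did not behave alike. Its median log2 ratio over shCtrl was 0.11 for ABL2 shRNA and 0.77 for both shRNAs, and it was 0.67 for ABL1 shRNA over the ABL2 shRNA library, a comparison without shCtrl. The summed level of the list was 6666 CPM in shCtrl, 11050 with ABL1 shRNA, 7302 for ABL2 shRNA and 11180 for both. The sums in the DMSO samples were 12460 and 12250 CPM. The library with ABL1 shRNA thus stood nearer to the untransduced cells than shCtrl did, although the sets of samples were cultured and prepared apart and were not normalised together. In bulk RNA a larger share of cells in mitosis and more of these mRNAs per cell cannot be told apart.

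**Figure D3:**
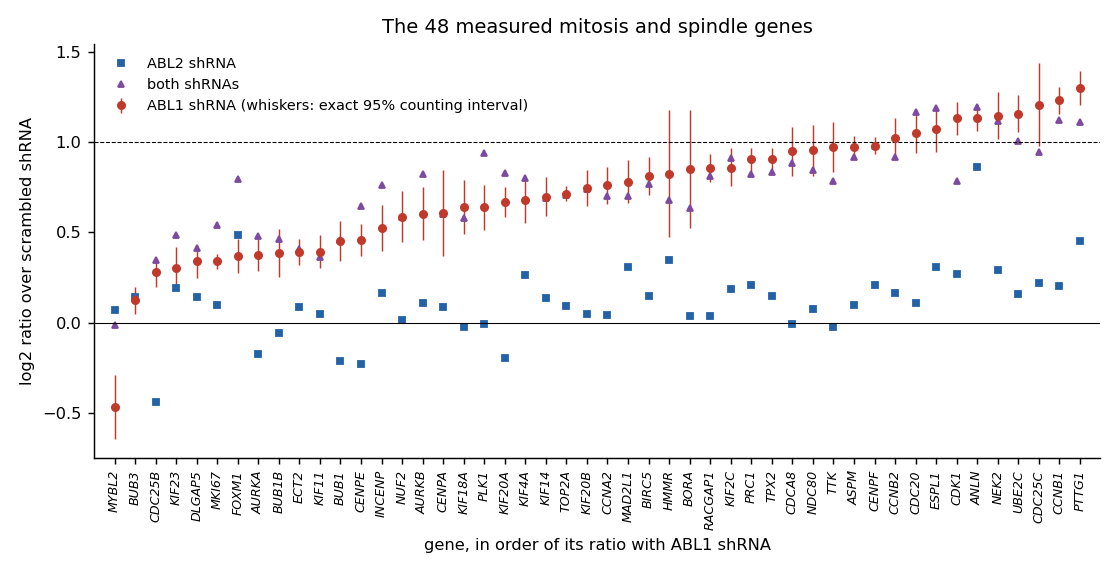
Log2 ratio over scrambled shRNA (vertical axis) of the 48 measured mitosis and spindle genes, in order of their ratio with ABL1 shRNA (circles, with exact 95% counting intervals), beside ABL2 shRNA (squares) and both shRNAs (triangles), with a dashed line at 2-fold. 47 of 48 circles lie above 0, and the list median is 0.75 for ABL1 shRNA, 0.11 for ABL2 shRNA and 0.77 for both.

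The promoters of these genes are shown because late cell cycle genes are known for a cell cycle homology region (CHR) and for CCAAT boxes bound by NF-Y. Promoters came from RefSeq (GRCh38.p14), in which 40 of the 48 list genes had an entry, and the 250 bases before the start were searched on both strands for the CHR letters TTTGAA, whose reverse complement is TTCAAA, and for the CCAAT box, which reads ATTGG on the other strand. The motifs can share an end base. The CHR letters were found in 22 of the 40 promoters (55.0%), in 8.25% of the 9471 promoters of measured genes and in 13.6% of all 27305. CCAAT was found in 31 of the 40 (77.5%), in 35.6% of those of measured genes and in 33.0% of all, and at least 2 copies in 47.5%, 13.3% and 10.0%. Both motifs together were in 20 of the 40 promoters of the list and in 3.45% of those of measured genes. Of the 9 members past 2-fold with an entry, 5 had the CHR letters (55.6%), 7 had CCAAT (77.8%) and 4 had both (44.4%). The called members thus had nearly the same shares as the list. Because the list was made of late cell cycle genes, its shares describe that class and do not bear on the knockdown. These are matches of letters and not sites of binding. Below are the 150 bases before the start of 4 genes past 2-fold, all on the plus strand and written 5′ to 3′, with CHR and CCAAT matches in either direction in capitals. CCNB2 has 1 CHR and 3 CCAAT boxes, CDC20 has 1 and 2, ESPL1 has 1 and 1, and CCNB1 has 2 CCAAT boxes and no TTTGAA in these bases. The 4 do not stand for all called members. PTTG1, NEK2, CDK1 and CDC25C, not shown, also had no TTTGAA in their 150 bases, and CDC25C had no CCAAT either.
CCNB2 promoter, chr15:59104996-59105145: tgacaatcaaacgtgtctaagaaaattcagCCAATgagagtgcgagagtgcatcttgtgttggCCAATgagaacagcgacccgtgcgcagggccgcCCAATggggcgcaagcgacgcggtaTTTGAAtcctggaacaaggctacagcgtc
CDC20 promoter, chr1:43358831-43358980: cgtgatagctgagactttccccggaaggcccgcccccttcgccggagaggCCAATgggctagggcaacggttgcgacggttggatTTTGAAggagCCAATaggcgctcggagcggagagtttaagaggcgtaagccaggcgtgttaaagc
ESPL1 promoter, chr12:53268149-53268298: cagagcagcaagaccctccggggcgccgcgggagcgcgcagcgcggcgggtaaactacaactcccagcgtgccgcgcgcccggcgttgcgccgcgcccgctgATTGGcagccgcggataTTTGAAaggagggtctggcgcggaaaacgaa
CCNB1 promoter, chr5:69167000-69167149: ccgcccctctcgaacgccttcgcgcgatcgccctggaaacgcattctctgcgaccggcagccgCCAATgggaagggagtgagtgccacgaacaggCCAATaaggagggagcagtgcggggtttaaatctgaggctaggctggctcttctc

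Genes that act earlier in the cell cycle showed smaller ratios. Of 52 measured DNA replication genes, 42 were above shCtrl, the median was 0.35 and 1 was past 2-fold. That gene was CDT1, the licensing factor that loads the MCM helicase, at 24.6 CPM in shCtrl and 56.0 with ABL1 shRNA (1.18, 0.98 to 1.39). MCM4, a subunit of the helicase, followed at 88.9 and 178 CPM (0.998). Of 17 measured cyclins and CDK inhibitors, CDKN1C, which encodes the inhibitor p57, was called lower at 24.4 and 11.1 CPM (-1.14, -1.44 to -0.84). Replication-dependent histones, whose mRNAs largely lack a poly(A) tail, went the other way by their median, which was -0.85 over 7 measured genes with no call. Their summed level was nevertheless higher with ABL1 shRNA, at 559 against 448 CPM, and H1-2 had a ratio of 0.07. Among targets of p53, which is mutant in MDA-MB-231 cells, 2 of 23 measured genes were higher (8.70%), beside 2.34% of all measured genes. They were ZMAT3 (1.01) and the death receptor gene TNFRSF10B (1.03), and the list median was 0.11. ZMAT3 was not called with TMM or DESeq2 factors.

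Gel-forming mucin genes were the second group. Mucins are large glycoproteins, and MUC2, MUC5AC and MUC5B are gel-forming ones, encoded side by side on chromosome 11 from 1074875 to 1262172. MUC6, on the same list, had 14 counts in shCtrl and 32 with ABL1 shRNA and was not measured. MUC5AC had 611 counts in shCtrl and 4383 with ABL1 shRNA, or 52.6 and 337 CPM, a 6.40-fold higher level (log2 2.68, 2.56 to 2.80). MUC5B went from 172 to 671 CPM (1.97, 1.90 to 2.04). MUC2 was near the detection range at 19 and 113 counts (2.41, 1.70 to 3.19). Of 390 gene families with at least 5 measured members, 2 had the majority of them past 2-fold on 1 side, and the mucin stem was 1 of them, with 3 of 5 higher. MUC2 was measured only through the ABL1 shRNA library, so this majority is a description that rests on it, and with all mucins from 1 count the list median was -0.0033. The transmembrane mucin MUC1 went the other way, at 35.8 and 11.99 CPM (-1.58, -1.85 to -1.31), and MUC15 was within 2-fold (0.16). These genes hold repeats, so reads may be shared or lost among them, and the part of this in the ratios was not tested.

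The mucin levels also differed between the reference libraries. MUC5B was at 355 CPM for ABL2 shRNA and 585 for both, and at 3.48 and 3.78 CPM in the DMSO samples. MUC5AC was at 114 CPM for ABL2 shRNA and 307 for both, and at 7.39 and 12.04 CPM in DMSO. All 4 shRNA libraries thus lay above both DMSO samples for these genes, the scrambled control included, and ABL1 shRNA lay highest.

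AGR2 and SPDEF are further genes known from secretory epithelium. AGR2, an endoplasmic reticulum protein needed for mucin folding, had 18 and 112 counts (2.47, 1.75 to 3.28). SPDEF, a transcription factor of goblet cells, had 21 and 83 counts (1.82, 1.11 to 2.58). Both belong to the list of 12 luminal breast markers, of which 7 were measured. The other measured members were within 2-fold, with KRT8, XBP1 (0.64) and KRT18 (0.47) above shCtrl and GATA3 (-0.10) and EPCAM (-0.29) below. TFF1 had 4 and 9 counts and TFF3 15 and 10. AGR2 and SPDEF had under 50 counts in shCtrl and were measured only through the ABL1 shRNA library, so they are given as values and not as a count. The summed level of that list was 778 CPM in shCtrl, 1248 with ABL1 shRNA, 555 for ABL2 shRNA and 1033 for both, mostly through the keratin KRT8 at 466 and 804 CPM (0.79). The defining receptors ESR1 and PGR were at 8 and 11 counts and at 0 in both, respectively, and FOXA1 was at 4 and 3 counts.

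LGR5, a receptor for R-spondins and a Wnt target, had the highest ratio of all. It had 23 counts in shCtrl and 249 with ABL1 shRNA (1.98 and 19.1 CPM), a 9.66-fold higher level (3.27, 2.65 to 3.96), against 6.58 CPM for ABL2 shRNA and 14.8 for both. NKD1, a feedback inhibitor of Wnt signaling, had 8 and 67 counts (2.902, 1.84 to 4.17). The transcription factor TCF7 had 58 and 136 counts (1.07, 0.61 to 1.53). LGR5, NKD1 and TCF7 were the 3 of 28 measured Wnt pathway genes past 2-fold (10.7%), beside 2.34% higher among all measured genes. However, LGR5 and NKD1 were measured only through the ABL1 shRNA library. The list median was 0.23, and the common target AXIN2 had a ratio of 0.25. The cytokine IL11 had 288 counts in shCtrl and 2105 with ABL1 shRNA, or 24.8 and 162 CPM (2.71, 2.53 to 2.89), with 25.05 CPM for ABL2 shRNA and 139.8 for both, and 78.6 and 80.8 CPM in the DMSO samples. The 2 libraries with the ABL1 hairpin thus lay above DMSO and the 2 without it lay below.

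The remaining genes among the 15 highest had few counts in shCtrl. HCP5 had 8 and 81 counts (3.18), CDS1, a phospholipid enzyme on the epithelial list, had 9 and 84 (3.06), and CYP2S1 had 8 and 72 (3.01). CFP, which encodes the complement regulator properdin, had 28 and 213 counts (2.76, 2.19 to 3.39). The cytochrome gene CYP3A5 had 29 and 175 counts (2.43), the protease gene PRSS22 24 and 141 (2.39) and RHOV 17 and 97 (2.35). The netrin receptor gene UNC5B had 22 and 121 counts (2.30) and the noncoding LINC03033 3.62 and 17.3 CPM (2.26). In shABL2 the levels of NKD1, CYP2S1, RHOV and MUC2 were within 1 CPM of shCtrl, whereas CFP, at 13.7 CPM, HCP5, at 4.98, and PRSS22, at 10.7, stood above it.

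Lower genes reached larger ratios. CP, the copper-carrying ferroxidase ceruloplasmin, had 85 counts in shCtrl and 4 with ABL1 shRNA (7.32 and 0.307 CPM), a log2 ratio of -4.57 (-6.48 to -3.16). SNCAIP, which encodes a synuclein-binding protein, had 67 and 4 counts (-4.23, -6.15 to -2.81). FILIP1L had 564 and 63 counts (-3.33, -3.73 to -2.95). PEG10, an imprinted gene derived from a retrotransposon, was lower at a high level, with 6128 counts in shCtrl and 847 with ABL1 shRNA, or 528 and 65.1 CPM (-3.02, -3.12 to -2.92). Its level was 179 CPM for ABL2 shRNA, 99.97 for both and 179 and 172 in the DMSO samples, so shCtrl was the highest of these libraries.

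In 14 of the 15 lowest genes, all but SLC29A4, shCtrl was the highest of the shRNA and DMSO libraries. These genes were picked for a low ratio over shCtrl, which favours a high level in shCtrl. The count is a description, and the share over all measured genes was not counted. BMF, a proapoptotic BH3-only gene, was at 53.3 CPM in shCtrl, 7.69 with ABL1 shRNA, 11.6 for ABL2 shRNA, 7.16 for both and at most 0.697 in DMSO. CCN5, a matricellular gene, was at 27.5 CPM in shCtrl, 3.69 with ABL1 shRNA, 1.12 for ABL2 shRNA and 2.91 for both, and at 0.174 and 0 CPM in DMSO. LOXL4, which crosslinks collagen, was at 175.0 CPM in shCtrl, 36.1 with ABL1 shRNA, 14.1 for ABL2 shRNA and 27.1 for both, and at 7.04 and 8.16 in DMSO. For such genes a low level with ABL1 shRNA and a high level in the shCtrl library cannot be told apart from the ratio alone. Others had similar counts in shCtrl and the ABL2 shRNA library. SLC29A4, a monoamine transporter gene, had 54 counts in shCtrl, 9 with ABL1 shRNA, 63 for ABL2 shRNA and 22 for both (-2.75, -3.95 to -1.72). RAB15 had 195, 48, 152 and 72 counts (-2.19, -2.67 to -1.72). The remaining genes were DUSP8 (-2.99), THBS1-IT1 (-2.38), SHOC1 (-2.36), VIPR1 (-2.18), C4A (-2.17) and MMP2 (-2.11). THBS1-IT1 lies inside THBS1 on the same strand, so reads of these genes cannot be told apart.

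Chemokine genes were mostly below shCtrl, with 6 of 7 measured members under their control level. Of the 7, 3 were lower, 1 was higher and the median was -0.91, and CCL20 and CX3CL1 were measured through 1 library. CXCL8, the neutrophil attractant interleukin-8, was at 379 CPM in shCtrl, 133 with ABL1 shRNA, 115 for ABL2 shRNA and 75.4 for both (-1.51, -1.59 to -1.43). CCL20 (-1.34, -1.999 to -0.71) and CXCL3 (-1.07, -1.45 to -0.70) were the others. CX3CL1 was the higher 1, at 24 and 78 counts (1.54, 0.86 to 2.26). CXCL1 was at 234 and 125 CPM (-0.91) and IL6 at 69.3 and 35.3 CPM (-0.97), both within 2-fold, although IL6 was called lower with TMM or DESeq2 factors. IL32 was lower, at 10.8 and 2.61 CPM (-2.04), but was measured only through shCtrl. CXCL8 was at 25.4 and 30.4 CPM in the DMSO samples, below all 4 shRNA libraries.

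Of 20 measured complement and coagulation genes, 5 were lower and 0 higher, while 8 were above shCtrl, with a list median of -0.30. All 5 belong to complement and none to coagulation. C1S, a protease of the first complement complex, was at 47.1 and 13.8 CPM (-1.78, -2.03 to -1.53). Its partner C1R, at 68.0 and 31.4 CPM, had a ratio of -1.11 (-1.29 to -0.94). C4A (-2.17) and C4B (-1.86) are near-identical copies among which reads may be split, and their values are uncertain one by one. C3 (-0.85) and CFB (-0.77) were within 2-fold, as were the coagulation members TFPI2 (0.94) and F2RL1 (0.97) on the other side. Properdin, described above as higher, is not on this list.

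Genes switched on by YAP and TAZ, the coactivators of the Hippo pathway that answer to actin tension, were shifted down. Of 25 measured YAP targets, 20 were below shCtrl, 3 were called lower, 0 higher and the median was -0.56. CCN1, a secreted matricellular protein, was at 928 CPM in shCtrl, 401 with ABL1 shRNA, 263 for ABL2 shRNA and 367 for both (-1.21, -1.26 to -1.16). TGFB2, a TGF-β ligand, was at 201 and 77.1 CPM (-1.38, -1.49 to -1.28), and CCDC80 was at 76.4 and 32.2 CPM (-1.25). The classical targets CCN2 (-0.57) and ANKRD1 (-0.77) were within 2-fold. The list median was -0.70 with ABL2 shRNA and -0.53 with both, and 0.10 for ABL1 shRNA over ABL2 shRNA, so the other hairpins stood as low. In 20 measured SRF actin genes the median was -0.28, with 17 below shCtrl and MYL9, a myosin light chain, past 2-fold at 94.9 and 47.0 CPM (-1.01).

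In the matrix, different members moved to different sides. THBS1, thrombospondin 1, was at 747 CPM in shCtrl, 285 with ABL1 shRNA, 213 for ABL2 shRNA and 258 for both (-1.39, -1.45 to -1.33). COL1A1, the main chain of type I collagen, was at 398 CPM in shCtrl and 98.8 with ABL1 shRNA (-2.01, -2.10 to -1.92), with 229 CPM for ABL2 shRNA and 140.1 for both. COL1A1 is also the only fibroblast marker called, and PDGFRB was measured at 89 counts in both libraries. The other markers of that list were under 50 counts, with COL1A2 at 18 and 7, COL3A1 at 42 and 3 counts, DCN, LUM and PDGFRA at 7 counts or fewer and POSTN at 0 in both libraries. The other called collagens were higher, COL15A1 (2.15, 1.55 to 2.79), COL9A3 (1.27, 0.50 to 2.09) and COL17A1 (1.19, 0.82 to 1.56), so that of 19 measured collagens 3 were higher and 1 lower, with COL15A1 and COL9A3 under 50 counts in shCtrl. LAMB3, the β3 chain of laminin-332, was higher at 276 and 605 CPM (1.13, 1.07 to 1.19), and ITGB4, a subunit of the laminin-332 receptor, was at 539 and 1031 CPM (0.94). ITGB2, the leukocyte integrin subunit, was the 1 of 14 measured integrins past 2-fold, at 22.7 and 73.5 CPM (1.69, 1.49 to 1.89).

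**Figure D4:**
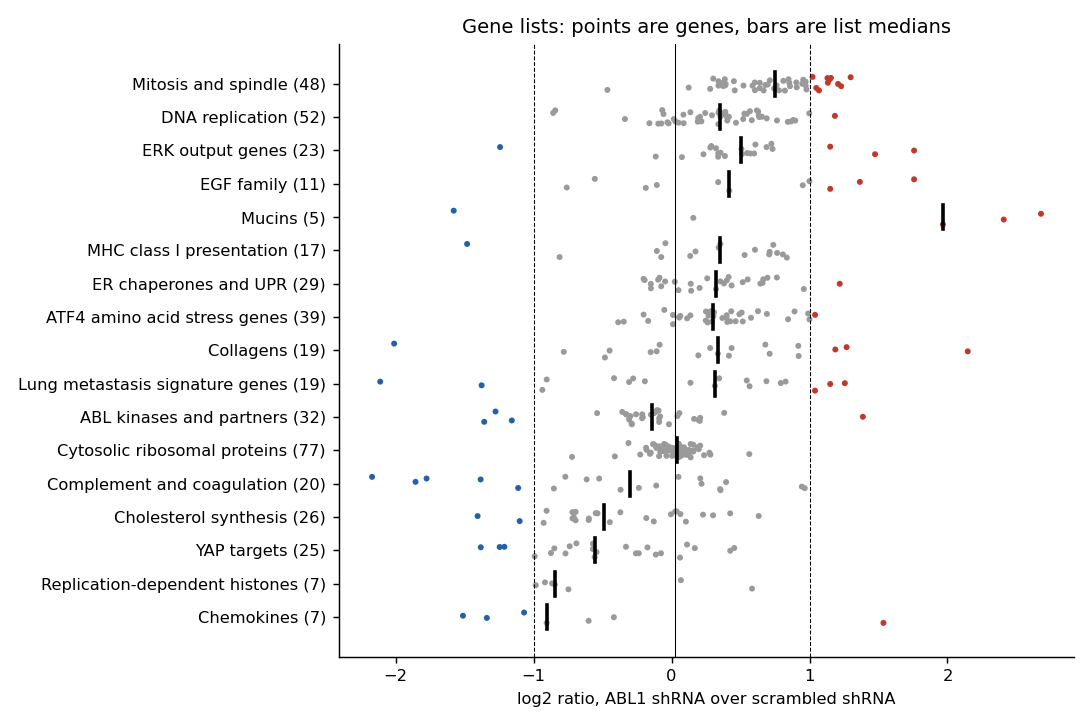
Log2 ratio of ABL1 shRNA over scrambled shRNA (horizontal axis) of the measured members of 17 gene lists, with 1 point per gene, bars at list medians, dashed lines at 2-fold and the number of measured genes in brackets. The medians run from -0.91 (chemokines) to 1.97 (mucins), with mitosis and spindle at 0.75, and ribosomal proteins lie close to 0 (0.04).

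Matrix enzymes were split as well. The gelatinase gene MMP2 was at 95.002 and 21.98 CPM (-2.11, -2.30 to -1.92) and MMP11 at 125 and 70 counts (-1.0008). Higher were MMP15, at 62 and 183 counts (1.40), ADAM12, at 23 and 112 counts (2.12), ADAM19, at 80.3 and 175 CPM (1.12), and ADAM8, at 196 and 394 CPM (1.0047). Thus 4 of 24 measured matrix proteases and inhibitors were higher (16.7%) and 2 lower (8.33%), beside 2.34% and 2.12% of all measured genes. ADAM12 was measured only through the ABL1 shRNA library, and ADAM8 was not called with TMM or DESeq2 factors. All 3 called genes among 14 lysyl oxidases and collagen hydroxylases were lower, LOXL4, LOX at 189 and 89.8 CPM (-1.07) and P3H2 at 108 and 51.6 CPM (-1.07). The list was split, with 6 of the 14 above shCtrl and a median of -0.04. P3H4 (0.996) and P3H3 (0.92) lay just under 2-fold on the higher side. PLAU, the urokinase gene, was at 313 and 178 CPM (-0.81), within 2-fold.

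Some ligands of the EGF receptor were higher, and genes known as output of the ERK kinases were mostly above shCtrl. Of 11 measured EGF family genes 3 were higher (27.3%, beside 2.34% of all measured genes), all of them ligands. AREG, amphiregulin, was at 14.3 CPM in shCtrl, 48.3 with ABL1 shRNA, 30.4 for ABL2 shRNA and 35.4 for both (1.76, 1.51 to 2.01). TGFA was at 39.0 and 100.5 CPM (1.37, 1.21 to 1.52). EREG, epiregulin, was at 185 and 410 CPM (1.15, 1.08 to 1.22), with 201 CPM with ABL2 shRNA. The receptors EGFR (-0.56) and ERBB2 (-0.11) were within 2-fold. Of 23 measured ERK output genes, 21 were above shCtrl, 3 were higher, 1 was lower and the median was 0.51, against 0.47 for ABL2 shRNA and 0.55 for both. The 3 higher ones were SPRY4 and the ligands AREG and EREG, which are also counted in the EGF family, so the counts overlap. SPRY4, a feedback inhibitor of receptor tyrosine kinase signaling, was at 224.9 CPM in shCtrl and 625, 547 and 629 CPM in the other libraries (1.47 with ABL1 shRNA, 1.41 to 1.54). The phosphatase DUSP6 (0.61) and the ETS factor ETV4 (0.55) were within 2-fold, and EPHA4 was the 1 member called lower (-1.24, -1.67 to -0.83). The median for ABL1 over ABL2 shRNA was 0.01.

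Immediate early genes on the AP-1 list had 3 of 20 measured members higher and 1 lower. The orphan receptors NR4A3, with 19 and 69 counts (1.70), and NR4A1, with 33 and 112 counts (1.60, 1.03 to 2.21), were low in number. Both were measured only through the ABL1 shRNA library. KLF2 was at 17.6 and 44.1 CPM (1.33). JUND was lower, at 170 and 69.9 CPM (-1.28, -1.39 to -1.16), while JUN was close to its control level (-0.10).

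Most sterol synthesis genes were below shCtrl. The list had 26 measured members, 18 of them below shCtrl, 2 lower, 0 higher and a median of -0.49. DHCR7, which makes cholesterol in the last step, was at 165 and 62.3 CPM (-1.41, -1.53 to -1.29). HMGCS1, near the head of the pathway, was at 205 and 95.4 CPM (-1.10, -1.20 to -1.0017). SQLE (-0.93) and the regulator SREBF2 (-0.54) were within 2-fold. The list median was -0.365 with ABL2 shRNA and -0.50 with both, and 0.00 for ABL1 over ABL2 shRNA. UGCG, which makes glucosylceramide, was the lower 1 of 22 measured sphingolipid genes, at 481 CPM in shCtrl and 131, 145 and 102 CPM for ABL1, ABL2 and double knockdown (-1.87, -1.95 to -1.79).

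Stress and antigen presentation lists had small shifts. In 29 measured endoplasmic reticulum chaperones the median was 0.32 and 1 gene was higher, DNAJB9 at 18.5 and 43.1 CPM (1.22, 0.99 to 1.45), with HSP90B1 at 774 and 1253 CPM (0.70). In 39 measured ATF4 stress genes the median was 0.30, and SLC7A11, the cystine importer, was the 1 past 2-fold at 92.5 and 190.2 CPM (1.04, 0.94 to 1.14). In 17 measured MHC class I genes the median was 0.35, with HLA-B at 267 and 468 CPM (0.81), a gene that shares reads with other HLA genes. ERAP1, the peptidase that trims peptides for MHC class I, was called lower against that direction. It was at 106 CPM in shCtrl, 37.8 with ABL1 shRNA, 111 for ABL2 shRNA and 45.7 for both (-1.48, -1.64 to -1.33), so both libraries with the ABL1 hairpin were low and those without it were not.

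APOBEC3 genes, cytidine deaminases that act on retroviral and nuclear DNA, were the other family with most of its measured members past 2-fold. They lie together on chromosome 22. APOBEC3G had 181 and 769 counts (1.92, 1.69 to 2.16), APOBEC3D 97 and 250 (1.20) and APOBEC3C 540 and 1387 (1.20). APOBEC3F (0.94) and APOBEC3B (0.90) were within 2-fold, so that all 5 were above shCtrl, with a median of 1.20. APOBEC3G stood at 15.6 CPM in shCtrl, 59.1 with ABL1 shRNA, 42.1 for ABL2 shRNA and 55.1 for both, and at 4.17 and 5.27 CPM in the DMSO samples. The genes resemble each other and may share reads. Interferon-stimulated genes as a list did not share the shift, since 26 of 44 measured were above shCtrl with a median of 0.12, IFI27 higher (1.09) and OAS3 (-1.02) and IFITM2 (-1.08) lower.

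Of 19 measured genes of the lung metastasis signature, 3 were higher and 2 lower, beside 2.34% and 2.12% of all measured genes, and the median was 0.31. VCAM1, a cell adhesion receptor, was at 29.0 and 69.3 CPM (1.26, 1.07 to 1.44), EREG is described above, and ID1, an inhibitor of differentiation factors, was at 43.2 and 88.9 CPM (1.04, 0.89 to 1.19). MMP2 and the CAS family scaffold NEDD9, at 17.6 and 6.76 CPM (-1.38, -1.75 to -1.01), were lower. Members within 2-fold included ANGPTL4 at 18.5 and 32.1 CPM (0.79), TNC at 99.6 and 147 CPM (0.57), LY6E at 52.97 and 85.3 CPM (0.69), MMP1 at 64.9 and 71.4 CPM (0.14), PTGS2 at 77.5 and 67.8 CPM (-0.19) and CXCL1. PLAAT4, also known as RARRES3, had 6.37 and 5.15 CPM (-0.31, -0.81 to 0.19), an interval that includes 0. The signature therefore held members on both sides. The remaining members were IL13RA2 (0.83), KYNU (0.55), LTBP1 (0.34), FSCN1 (0.31), SPARC (-0.28), ROBO1 (-0.42) and MAN1A1 (-0.94).

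Among the partners of the ABL kinases, 24 of 32 measured genes (ABL1 and ABL2 included) were below shCtrl, with a median of -0.14. Besides ABL1, ENAH, an actin-elongating Ena/VASP protein, was lower at 161 and 66.6 CPM (-1.28, -1.39 to -1.16), and CBLB, a ubiquitin ligase that restrains tyrosine kinase signals, at 61.8 and 27.7 CPM (-1.16, -1.34 to -0.97). WASF3, a WAVE subunit, was higher at 43 and 126 counts (1.39, 0.88 to 1.92), but was measured only through the ABL1 shRNA library. The adaptors CRK (-0.09), CRKL (-0.08) and ABI1 (-0.02) and the kinase SRC (-0.11) were close to their control level. The EPH receptors had 3 of 11 measured genes lower (EPHA5, EPHA4 and the ligand EFNA5) and the FGFR, PDGFR and VEGFR list 2 of 17 (PDGFB and FGF5), beside 2.12% lower among all measured genes. EPHA5, with 80 and 37 counts, was measured only through shCtrl.

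Over 56 lists without the cell type markers, which together held 1192 measured genes, 3 medians were above 0.5 and 3 below -0.5. In 14 lists no measured member passed 2-fold. The list of NF-kB subunits and feedback genes is among them, but only 23 of its 24 genes were matched by symbol. SOD2 was not matched, so the absence of calls in that list does not cover it. Of the measured genes 107 had no symbol, and a list member among them would be missed. Cytosolic ribosomal proteins were the flattest large list, with 0 of 77 past 2-fold and a median of 0.04, while nuclear respiratory chain genes had 36 of 38 above shCtrl at a median of 0.18. Glycolysis had 22 of 31 measured genes below shCtrl, a median of -0.14 and no call. Of the other cell type lists, leukocyte markers were at 0 to 4 counts except CD14, with 32 and 86 counts (1.26), and LYZ, with 2 and 16. Their summed level was 3.53 CPM in shCtrl and 8.76 with ABL1 shRNA, with CD3E at 0 in both. The packaging cell list summed to 96.4 and 135.5 CPM through CKB, ZIC2 and POU3F2, and the endothelial list to 89.8 and 100.5 CPM, with CDH5 at 2 counts in shCtrl and 0 with ABL1 shRNA. The part of other cells in the results was not tested.

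The 10 called genes with the highest CPM in either library included several described above (PEG10, MUC5B, LAMB3, SPRY4, CCN1 and THBS1). FTL, the light chain of ferritin, was at 1429 CPM in shCtrl, 680.0 with ABL1 shRNA, 1183 for ABL2 shRNA and 870.3 for both (-1.07, -1.11 to -1.03), and has many pseudogenes with which reads may be shared. LASP1, an actin-binding LIM protein, was at 679, 278, 615 and 392.4 CPM in the same order (-1.29, -1.35 to -1.23). RTN4, which shapes the endoplasmic reticulum and encodes Nogo, was at 544, 194, 532 and 258 CPM (-1.49, -1.56 to -1.42). Both genes were therefore low in the 2 libraries that carry the ABL1 hairpin and near shCtrl with ABL2 shRNA. LAMP1, a lysosomal membrane protein and the 1 lower gene of 46 on the lysosome list, had the same order at 327, 145, 307 and 190.0 CPM (-1.17). The last of the 10, ENSG00000112096.13, was at 747 and 208 CPM (-1.84, -1.91 to -1.78). It has no symbol in the tables used here, so it entered no gene list. Whether it is a list member left unmatched, such as SOD2, was not determined.

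Along the genome, neighbouring genes moved together in few places. Chromosome medians ran from -0.04 to 0.09. Among 11566 windows of 25 neighbouring measured genes, medians ran from -0.34 to 0.53, between the DMSO repeats from -0.11 to 0.12, and in the windows of the same genes with ABL2 shRNA from -0.24 to 0.44. The highest window lay in the zinc finger cluster of chromosome 19, from 19623655 (LPAR2) to 23250394 (ZNF724). KRAB zinc finger proteins of this cluster silence retrotransposons. Of its 25 genes, 23 were above shCtrl and 4 past 2-fold, which were ZNF724 (1.59, 1.15 to 2.06), ZNF714 (1.26, 0.99 to 1.52), ZNF85 (1.03) and ZNF90 (1.03). The window was picked as the highest, so its values are a description. In the same window the median was -0.06 for ABL2 shRNA and 0.34 for both shRNAs. These paralogs share sequence, so a read may be assigned to its neighbour, which was not tested. The lowest window, on chromosome 1 from 85318481 (DDAH1) to 92298987 (GLMN), had 16 of 25 genes below shCtrl and 2 lower.

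**Figure D5:**
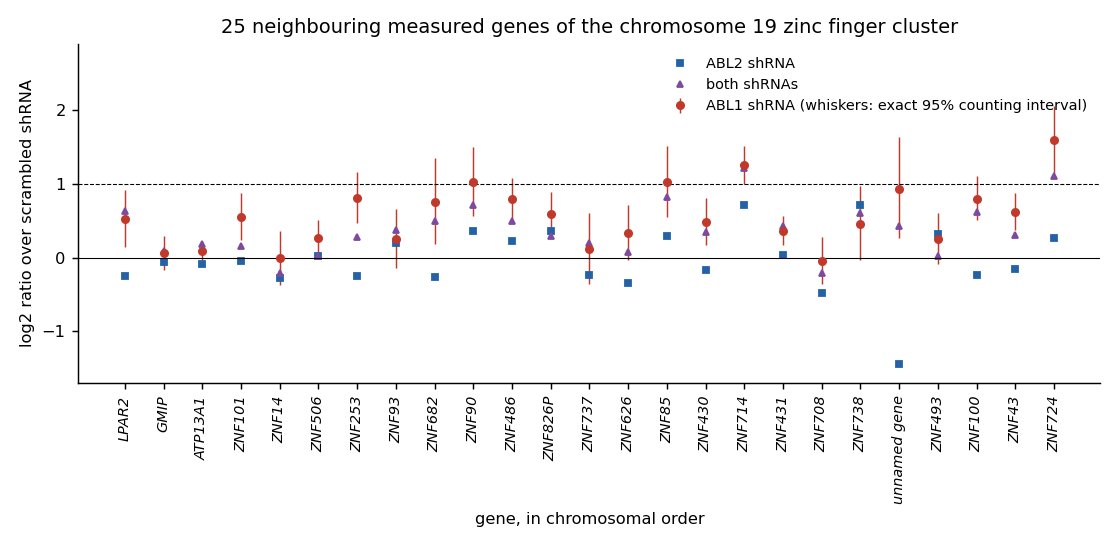
Log2 ratio over scrambled shRNA (vertical axis) of the 25 neighbouring measured genes of the chromosome 19 zinc finger cluster, in chromosomal order, for ABL1 shRNA (circles, with exact 95% counting intervals), ABL2 shRNA (squares) and both shRNAs (triangles). 23 of 25 circles lie above 0, with window medians of 0.53, -0.06 and 0.34.

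Runs of at least 3 neighbouring measured genes past 2-fold on 1 side were found in 3 places. The gel-forming mucins MUC2, MUC5AC and MUC5B were the higher run. On chromosome 3, from 189631389 to 190322446, TP63 (-1.03), P3H2 (-1.07) and the tight junction gene CLDN1 (-1.69, -2.31 to -1.10) were lower. CLDN1 had 95 and 33 counts and was measured only through shCtrl. On chromosome 19, from 49157741 to 49362457, TRPM4 (-1.20), CD37 (-1.88, -2.42 to -1.36) and TEAD2 (-1.07) were lower, the last of them a partner of YAP. CD37 and TEAD2 overlap on opposite strands, and the strand setting of the counting is not given in the sources used here, so reads of the overlap cannot be told apart. Technical properties of the genes were weakly related to the ratio across genes, which are not independent replicates. Spearman's rank correlation was -0.05 with GC content and -0.08 with exon length, over 12135 genes.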

How the data were processed

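RNA from LM2 cells was sequenced with 1 library per shRNA group. The study's methods name the NEBNext Ultra kit and a HiSeq 2500 for the Ponatinib experiment, and the labels give standard Illumina protocols for all samples. Per the submitters' processing notes the authors used FastQC, TopHat (hg38) and HTSeq 0.6.0. The deposited values are raw read counts per gene, without normalization. The annotation release and strand setting are not given in the sources used here.

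Counts were divided by the counts on genes, after removing 5 summary rows (reads on no gene were 9.48% in shCtrl and 9.54% with ABL1 shRNA, ambiguous reads 6.18% and 6.22%). In these libraries 3 counts equal 0.258 and 0.231 CPM. Symbols matched 54836 gene IDs, and positions are from GENCODE 44 (GRCh38). Levels carry exact Clopper-Pearson intervals and ratios exact conditional 95% intervals, both for counting error only, since reads without molecular identifiers are not independent molecules. With 1 sample per group no test supports any result, and an edgeR fit of all 8 samples served only as an alternative rule for counting calls.

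The comparison, the members and the gene lists were chosen with earlier results of these data known. Named were ABL1 and ABL2, the 15 highest and 15 lowest ratios, the 10 called genes with the highest CPM, lung metastasis signature genes, called list members, and members of families and runs found by rule. Other list members were named after their values were seen. The scripts were tested on simulated data. SciPy 1.17.1 gave the intervals, and edgeR 4.0.16 and DESeq2 1.42.0 the alternatives, which changed the scaling, the filter, the pseudocount and the size rule. Hairpin sequences were not used here, and the values of a few list members are not reported here.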

Additional observations from a re-analysis of the deposited data

Results flagged for a closer look

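Of the genes measured and past 2-fold over shCtrl with ABL1 shRNA, 2 had a ratio past 2-fold on the opposite side with ABL2 shRNA, over the same shCtrl library, and only ARNT2 also had at least 50 counts in that comparison. ARNT2, a partner of bHLH-PAS transcription factors, had 122 counts in shCtrl, 387 with ABL1 shRNA, 59 for ABL2 shRNA and 169 for both. Its log2 ratio was 1.501 (1.20 to 1.81) with ABL1 shRNA and -1.15 with ABL2 shRNA, and 2.65 (2.25 to 3.07) between those libraries. GLP2R, a receptor for a glucagon-like peptide, had 13, 57, 2 and 28 counts in the same order. Its log2 ratio was 1.97 (1.08 to 2.96) with ABL1 shRNA and -2.80 with ABL2 shRNA, from 13 and 2 counts, and 4.77 (2.85 to 7.85) between the ABL1 and ABL2 shRNA libraries. These differences were not tested, since each group is 1 library, and the intervals cover counting error only.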

How the results depend on the processing

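The log2 ratio of ABL1 moved by less than its counting interval with TMM factors, DESeq2 size factors and a pseudocount of 2 counts. Both scalings lowered the median ratio of all genes by 0.03, and gave 560 calls (273 higher, 287 lower). CCNB2, ADAM8 and ZMAT3 were then no longer called, and ASAP1, IL6, IL1R1, H2BC5 and PCDHGB1 became called lower. No paired analysis was possible because the shRNA samples carry no replicate number and each group has 1 library. The number of genes past 2-fold depended on the filter and the size rule. It was 1405 (800 higher, 605 lower) from 10 counts, 284 (136 and 148) from 200 counts and 3437 (1699 and 1738) from 1 count. It was 214 (110 and 104) where the whole counting interval had to pass 2-fold. Adding an unadjusted P under 0.05 in an edgeR fit of all 8 samples left the 546 calls as they were, but 5868 of the 18275 genes in the fit passed that P, and only the DMSO and Ponatinib repeats inform the fit, so it adds no support. From 200 counts, an alternative chosen after seeing the data, ABL2 shRNA gave 236 calls (146 and 90) and both shRNAs 199 (107 and 92). Between the DMSO repeats 0 genes passed 2-fold from 200 counts.

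Of 371 list medians under other settings, 350 moved by less than the median counting error of their members. From 10 counts the medians were 0.0537 for collagens, -0.23 for histones, 0.68 for the EGF family, 1.498 for mucins, -0.36 for cancer-testis antigens, 2.05 for leukocyte markers and -1.77 for fibroblast markers. From 1 count they were -0.60 for chemokines, -0.0866 for collagens, -0.19 for fatty acid synthesis, -0.16 for histones, 0.84 for the EGF family, -0.0033 for mucins, -0.23 for small noncoding RNAs, -0.16 for leukocyte markers and -1.39 for fibroblast markers. From 200 counts they were -0.0365 for the Wnt pathway, 0.33 for endothelial markers and -2.01 for fibroblast markers. Mitochondrially encoded mRNAs had -0.0512 with TMM and -0.0510 with DESeq2 factors. The filters change which members enter a median. Median ratios for mitosis, YAP target and cholesterol genes kept their sign in every setting. Depth limits genes near 50 counts, where calls were most frequent.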
